A study of Mus musculus with 11 samples.

Results

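The immediate-early response genes described here are Fos, Fosb, Jun, Junb, Egr1, Egr3, Atf3, Btg2, Apold1 and Dusp1. They were taken from the deposited table of heart expression values as the rows whose RefSeq accession maps to these symbols in GRCm38, which gave 10 of 21878 rows, 1 row for each gene. Immediate-early genes are transcribed within minutes of a stimulus, from factors that already wait in the cell, and need no new protein for it. Growth factors, calcium entry, stretch and hypoxia reach them mainly through MAP kinases, serum response factor with its ETS partners, and CREB. Their RNAs and proteins are short-lived, so the level in a tissue follows its recent past, and in the heart many cell types can make them.

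The hearts came from female mice of wild-type genotype. The PCOS group (5 samples) models polycystic ovary syndrome through treatment with anti-Müllerian hormone (AMH) before birth, and the control group (6 samples) received vehicle, phosphate-buffered saline, before birth. The labels used here name no age, litter, batch or time of day, and do not say whether samples of a group are separate mice, so that a p-value here reflects no more than the variation among the samples given, some of which may be technical. Whole reads recovered from the values summed to between 11866288 and 14346620 per library over the listed genes. Control replicate 6 stood apart, with a median Pearson correlation of 0.962 with the other libraries across genes, against 0.987 to 0.993 for the other 10, and with 1540 FPKM in 6 liver markers summed, against at most 24.4 FPKM elsewhere. The members' differences between groups are therefore also given without it. Cardiomyocyte markers (8 of 9 listed were matched to a row) summed to between 40400 and 47400 FPKM, and none of those matched was at 0 in any library. A listed marker without a matched row, here and below, is not thereby shown to be unmeasured.

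The members belong to 4 kinds. Fos, Fosb, Jun and Junb encode subunits of AP-1, a dimeric factor that binds the sequence TGACTCA, and Atf3 encodes a related stress-induced factor that mostly represses. Egr1 and Egr3 encode zinc-finger factors of the early growth response family. Btg2 encodes an antiproliferative cofactor that promotes mRNA deadenylation. Apold1 encodes an endothelial early response protein, and Dusp1 encodes a phosphatase that switches off MAP kinases and thereby the pathway that induces it.

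Whether promoter sequence bears on how the members vary between libraries, as described below, was not tested. The sequence before the transcription start is shown for 5 members. It comes from the RefSeq promoter table of GRCm38.p6. Promoters of 8 of the 10 members, all but Egr1 and Egr3, were searched. Capitals mark TGACG or its complement CGTCA (the core of the CREB and ATF element, CRE), the full element TGACGTCA, and TATAAA.
Fos (chr12:85473715-85473889, plus strand): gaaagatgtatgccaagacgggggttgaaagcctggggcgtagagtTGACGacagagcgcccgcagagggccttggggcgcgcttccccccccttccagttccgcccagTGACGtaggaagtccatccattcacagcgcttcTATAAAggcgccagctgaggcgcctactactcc
Junb (chr8:84978749-84978923, minus strand): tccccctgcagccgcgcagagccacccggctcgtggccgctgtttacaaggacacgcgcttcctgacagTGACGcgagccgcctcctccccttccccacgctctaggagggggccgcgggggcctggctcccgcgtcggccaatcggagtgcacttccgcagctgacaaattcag
Btg2 (chr1:134079156-134079330, minus strand): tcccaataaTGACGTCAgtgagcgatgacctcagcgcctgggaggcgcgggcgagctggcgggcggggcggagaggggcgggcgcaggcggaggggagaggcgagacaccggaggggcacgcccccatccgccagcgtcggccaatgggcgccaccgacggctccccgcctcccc
Apold1 (chr6:134981826-134982000, plus strand): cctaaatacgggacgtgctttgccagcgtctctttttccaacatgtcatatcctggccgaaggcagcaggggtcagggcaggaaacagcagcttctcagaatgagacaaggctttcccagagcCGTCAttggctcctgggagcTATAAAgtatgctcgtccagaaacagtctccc
Dusp1 (chr17:26508473-26508647, minus strand): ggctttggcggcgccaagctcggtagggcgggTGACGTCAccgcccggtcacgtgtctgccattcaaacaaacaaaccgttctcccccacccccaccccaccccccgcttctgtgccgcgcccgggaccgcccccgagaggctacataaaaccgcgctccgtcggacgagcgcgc

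In the 250 bases before the start, TGACG occurred on either strand in 7 of the 8 member promoters (all but Jun). It occurred in 17.8% of the 32851 promoters searched, which leave out chromosome 18. This core was added to the search after the sequences had been seen. The promoters searched were not matched to those of the members in base composition, so the shares given here are no test of enrichment. The full TGACGTCA, which contains the core, was found in 2 of 8, Btg2 and Dusp1, against 1.55% of the promoters searched. TATAAA on the gene's strand was found in 2 of 8, Fos (33 to 28 bases before the start) and Apold1 (32 to 27 bases before it), against 7.59%. GCGGGGGCG, the EGR element, was found on either strand in 1 of 8, Fosb, against 2.57%. The AP-1 element TGACTCA (either strand, 4.46% of the promoters searched) and the CArG box of serum response factor (1.47%) were in 0 of the 8 windows. A match is only a run of letters, and these windows leave out more distant elements. The promoter of Egr1 was left out of the search together with its chromosome, and none was found for Egr3. The counts above therefore say nothing about these genes.

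**Figure D1:**
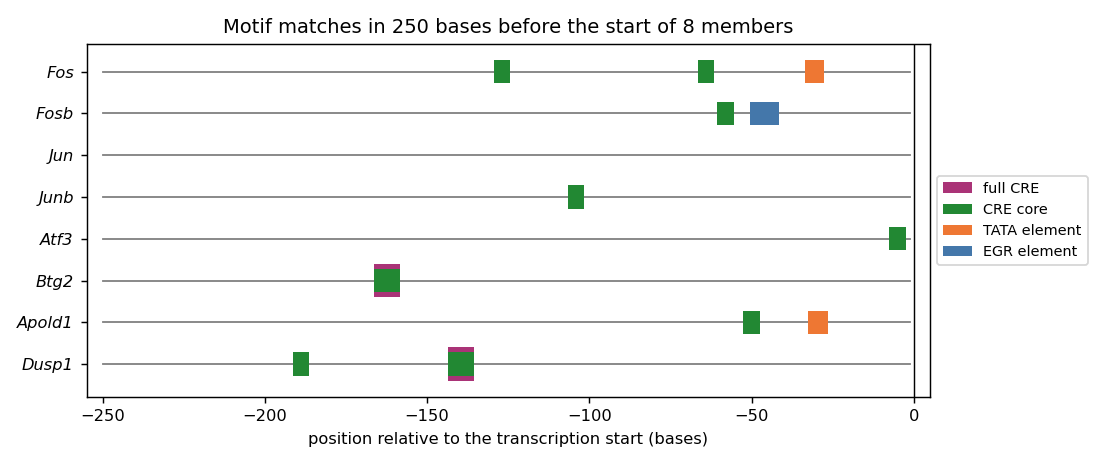
Each line is the stretch of 250 bases before the transcription start of a member (x axis, position in bases relative to the start, which is at 0), and each block a motif match. A CRE core, which was added to the search after the sequences had been seen, is seen in 7 of the 8 promoters. A full CRE is seen in Btg2 and Dusp1, and a TATA element in Fos and Apold1.

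All 10 members were detected in all 11 samples, at levels that differed widely between genes. Dusp1 had the highest mean level, at 140 ± 43.9 FPKM (SD, n = 11; FPKM counts fragments relative to transcript length and library total, and so allows a comparison per length), and Fosb the lowest, at 0.967 ± 0.752 FPKM. Between them came Egr1 (88.7 ± 44.2 FPKM), Btg2 (66.9 ± 37.4), Jun (62.4 ± 20.5), Junb (38.5 ± 18.0), Apold1 (29.2 ± 19.9), Fos (23.1 ± 13.4), Atf3 (13.5 ± 14.9) and Egr3 (3.0 ± 2.51). Most neighbours in this order kept it in nearly all libraries, for example Jun above Junb in 11 of 11 and Fos above Atf3 in 10 of 11. Btg2 was above Jun in only 6 of 11 libraries and Apold1 above Fos in 8 of 11, so that these neighbours are not set apart from each other.

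In GRCm38, Fos lies on chromosome 12 from 85473890 to 85477274, Fosb on chromosome 7 from 19302696 to 19310118, Jun on chromosome 4 from 95049036 to 95052222 and Junb on chromosome 8 from 84976909 to 84978748. Egr1 lies on chromosome 18 from 34861207 to 34864956 and Egr3 on chromosome 14 from 70077317 to 70082613. Atf3 (191170296 to 191183333) and Btg2 (134074865 to 134079155) both lie on chromosome 1, Apold1 on chromosome 6 from 134982001 to 134986836 and Dusp1 on chromosome 17 from 26505591 to 26508472.

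Among the AP-1 genes, Fos lay at 7.64 FPKM in the lowest, 15.7 FPKM in the median and 47.0 FPKM in the highest control, and at 15.1, 25.98, 43.7, 13.1 and 26.9 FPKM in PCOS replicates 1 to 5. The highest control and the highest PCOS sample were thus close to each other, while within each group the libraries were far apart. Junb, the more growth-restraining JUN protein, ranged from 14.46 through a median of 32.4 to 70.8 FPKM in controls and was at 32.2, 43.6, 67.3, 28.2 and 35.5 FPKM in PCOS. Jun varied less, from 39.7 through 56.5 to 104.9 FPKM in controls and at 48.9, 73.6, 92.2, 52.5 and 62.6 FPKM in PCOS. Fosb, a FOS relative that is scarce in resting tissue, ranged from 0.193 through 0.679 to 2.70 FPKM in controls and was at 1.31, 0.9745, 1.36, 0.187 and 0.532 FPKM in PCOS. Its lowest libraries, control replicate 4 and PCOS replicate 4, held 10 reads each (exact 95% Poisson interval 4.8 to 18.4, for counting error only) and its highest, control replicate 5, held 132 (110 to 157). The groups overlapped in all 4 of these genes.

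Atf3 had the widest range of the members, from 2.52 FPKM in control replicate 4 through a control median of 8.81 to 51.2 FPKM in control replicate 5. In PCOS it was at 6.63, 17.6, 29.1, 2.81 and 4.79 FPKM. PCOS replicate 4 was therefore nearly as low as the lowest control, and no PCOS sample reached the highest control.

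Egr1 fell into unequal values among controls, at 21.96 and 20.75 FPKM in replicates 1 and 4 and between 83.4 and 152.4 FPKM in the other 4, with 72.4, 113.5, 136, 62.9 and 83.6 FPKM in PCOS. All 5 PCOS values lay between the 2 low and the highest of the controls. Egr3 was far scarcer, from 0.496 through 2.07 to 7.87 FPKM in controls and at 2.13, 2.77, 4.12, 1.06 and 1.81 FPKM in PCOS. Control replicates 5 and 6 (7.87 and 7.38 FPKM) stood above the other 9 libraries for Egr3.

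Btg2 ranged from 25.2 through 55.7 to 137.1 FPKM in controls and was at 37.2, 84.4, 127.8, 47.6 and 65.9 FPKM in PCOS. Apold1 ranged from 6.76 through 24.9 to 62.7 FPKM in controls and was at 18.6, 39.9, 62.5, 13.8 and 20.5 FPKM in PCOS, so that the highest samples of both groups were nearly equal. Dusp1, the inhibitor of the pathway, ranged from 76.8 through 132.4 to 198.3 FPKM in controls and was at 114.3, 177, 217.4, 111.4 and 152.1 FPKM in PCOS. It was the 1 member whose highest library was from PCOS (replicate 3).

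**Figure D2:**
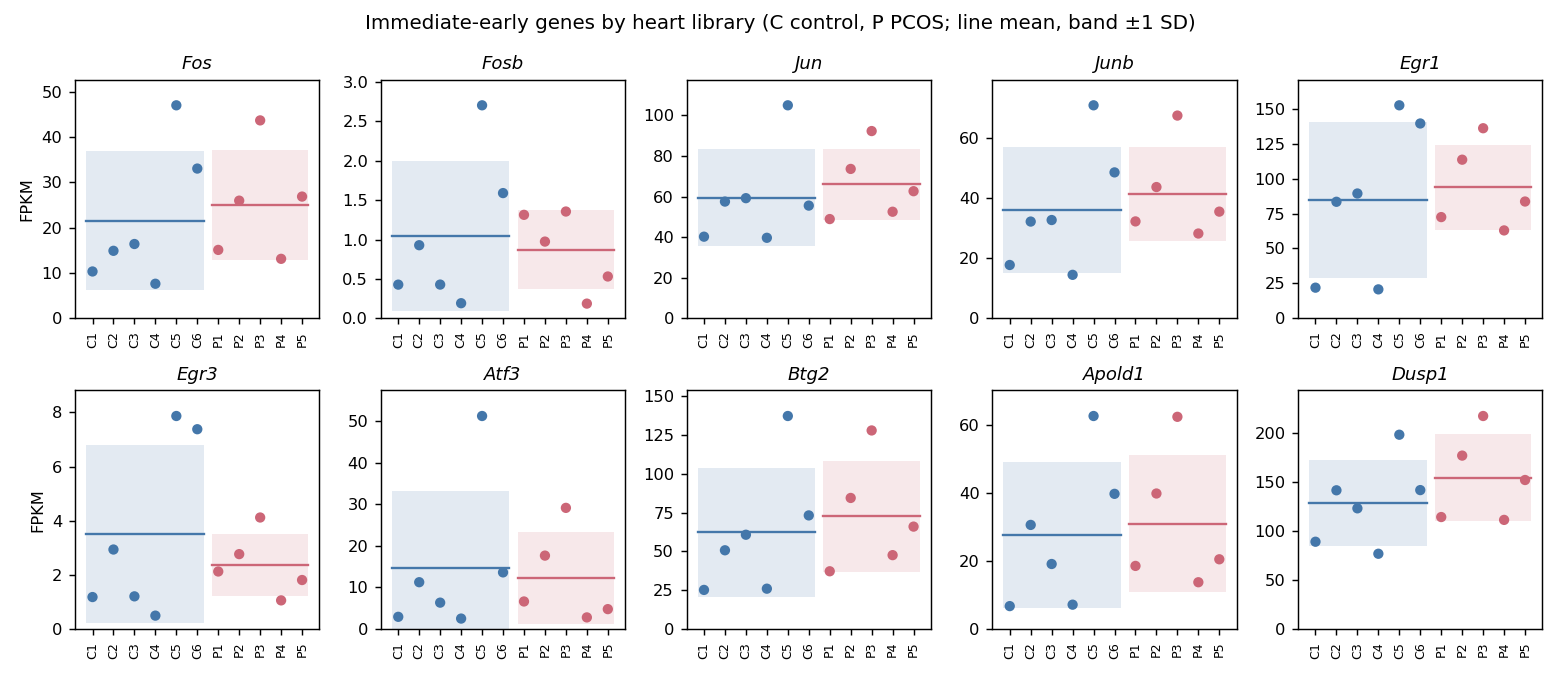
Each panel gives 1 gene's FPKM (y axis, linear from 0) in 6 control libraries (C1 to C6, blue) and 5 PCOS libraries (P1 to P5, red), with the group mean as a line and ±1 SD as a band. In every panel the groups overlap; C1 and C4 lie low, and C5 and P3 lie high.

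The same libraries were high or low in nearly every member, and they belonged to both groups. Control replicate 5 was the highest library in 9 of 10 members and among the top 2 in 10 of 10. PCOS replicate 3 was among the top 3 in 10 of 10. At the other end, control replicate 4 was among the lowest 2 in 10 of 10, control replicate 1 among the lowest 3 in 10 of 10, and PCOS replicate 4 among the lowest 3 in 8 of 10. Set against each gene's own median of 11 libraries, control replicate 5 was at a median of 2.56 times that level (1.40 for Dusp1 to 7.72 for Atf3), PCOS replicate 3 at 2.0 times, PCOS replicate 4 at 0.768 times, control replicate 1 at 0.502 times and control replicate 4 at 0.404 times (0.207 for Fosb to 0.690 for Jun). Control replicate 6, the library with liver transcripts, was at 1.69 times. Control replicate 5 had 24.4 FPKM of the same liver markers, the highest sum after control replicate 6. Control replicate 4 had the lowest, 7.75 FPKM. The part of liver transcripts in the members' levels was not tested.

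**Figure D3:**
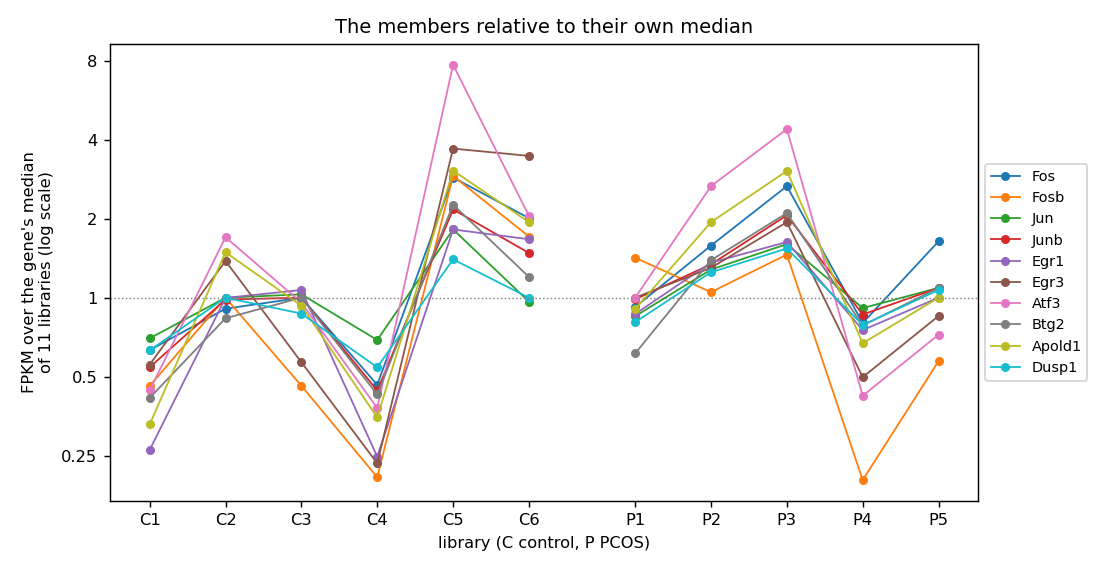
FPKM of each member divided by its own median of 11 libraries (y axis, log scale), for control libraries C1 to C6 and PCOS libraries P1 to P5; lines join the values of 1 gene and stand for no order of the libraries. The members move together, with medians of 2.56 in C5 and 2.0 in P3 against 0.404 in C4 and 0.502 in C1.

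Members of the same family did not keep a fixed ratio while they moved together. Fos over Jun went from 0.193 in control replicate 4 to 0.596 in control replicate 6 (median 0.309). Junb over Jun went from 0.364 to 0.873 in those libraries, with a median of 0.566. Fos and Junb were thus a larger part of these AP-1 transcripts, relative to Jun, in control replicate 6 than in control replicate 4. Egr3 over Egr1 went from 0.0135 in control replicate 3 to 0.0538 in control replicate 1, where both genes were low.

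The spread between libraries was large for these genes. Over all 11 libraries of both groups the highest exceeded the lowest by 20.3 times for Atf3, 15.8 times for Egr3, 14.4 times for Fosb, 9.28 times for Apold1, 7.35 times for Egr1, 6.15 times for Fos, 5.44 times for Btg2, 4.89 times for Junb, 2.83 times for Dusp1 and 2.64 times for Jun. All 10 exceeded 2 times, as did 16.5% of the 10836 fitted rows that were above 0 in every library, whose median ratio was 1.52. Within the controls the ratio went from 2.58 times (Dusp1) to 20.3 times (Atf3). Within PCOS it was smaller for all 10 members, from 1.89 times (Jun) to 10.4 times (Atf3). It was 1.95 times for Dusp1, 2.16 times for Egr1, 3.33 times for Fos and 3.89 times for Egr3. A further library can only raise such a ratio or leave it as it is, and there were 6 controls against 5 PCOS samples. The members move together, so these 10 ratios are not independent of each other. Whether the spread differs between the groups was not tested. The residual SD within groups, on the log2(FPKM + 1) scale, had a median of 0.83 over the fitted members and 0.15 over all 10891 fitted rows. It ranged from 0.45 for Jun to 1.35 for Atf3. Of the 9 fitted members 9 were in the top 5% of rows by this SD, and between 0.386% (Atf3) and 2.19% (Jun) of all rows had an SD as large. Without control replicate 6 the count was also 9, and without control replicate 5 it was 8. The choice of these genes was made knowing that they vary inside groups, so these values are a description. Counting error was small beside this spread in the fitted members, which had 26 reads or more in every library (Egr3 in control replicate 4 the fewest) and, apart from Egr3 and Atf3, 202 or more.

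**Figure D4:**
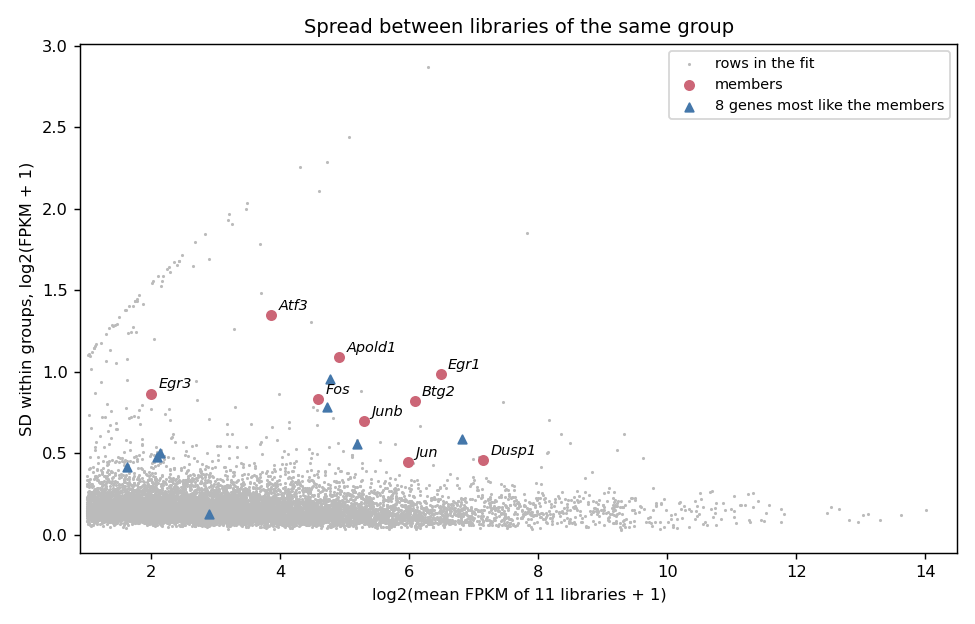
Residual SD within groups (y axis, log2(FPKM + 1)) against the mean level (x axis, log2(mean FPKM + 1)) for the 10891 fitted rows (grey), the 9 fitted members (red) and the 8 other genes most like them (blue triangles). The members lie between 0.45 and 1.35, above most rows, whose median is 0.15.

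Whether prenatal AMH exposure goes with a different level of these genes was asked by comparing the 5 PCOS with the 6 control samples. No member passed the test. In the limma fit over 10891 rows, 0 of the 9 fitted members passed an adjusted p of 0.05, where 15 rows, or 0.138%, did, all of them higher in PCOS. Without control replicate 6, 32 rows and 0 members passed. Of the 9 members 0 also passed at an unadjusted p under 0.05 (lowest 0.242), and limma's voom on the recovered reads called 0 as well. The groups overlapped in 10 of 10 members; over the fitted rows 0.698% had groups that did not overlap. Fosb was left out of the fit, because its mean of 0.967 FPKM lay under the minimum of 1 FPKM.

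No estimate was far larger than its standard error, and that of Dusp1 alone among the 9 fitted members exceeded it. For Egr1 the log2 difference (PCOS minus control) was 0.46 (SE 0.49, 95% confidence interval −0.60 to 1.53, limma adjusted p = 0.827), from means of 84.5 ± 55.9 FPKM (SD, n = 6) and 93.7 ± 30.3 FPKM (SD, n = 5). For Fos it was 0.34 (SE 0.42, interval −0.56 to 1.24, limma adjusted p = 0.845), from 21.6 ± 15.3 and 25.0 ± 12.2 FPKM. Dusp1 had the smallest p of the members, with a difference of 0.29 (SE 0.23, interval −0.22 to 0.79, limma adjusted p = 0.798), from 128.5 ± 43.5 and 154.4 ± 44.6 FPKM. Jun (0.19, interval −0.30 to 0.68), Junb (0.32, −0.44 to 1.08), Btg2 (0.33, −0.56 to 1.22) and Apold1 (0.35, −0.83 to 1.53) were alike in sign. Atf3 had equal means on this scale (−0.01, interval −1.47 to 1.46), and Egr3 was at −0.15 (−1.10 to 0.79). Fosb, taken from the fit with no filter, was at −0.06 (−0.71 to 0.59). The intervals are wide enough to hold a doubling of Fos, Egr1, Atf3, Btg2, Apold1 and Junb in PCOS, so that the values do not show that the groups are alike.

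**Figure D5:**
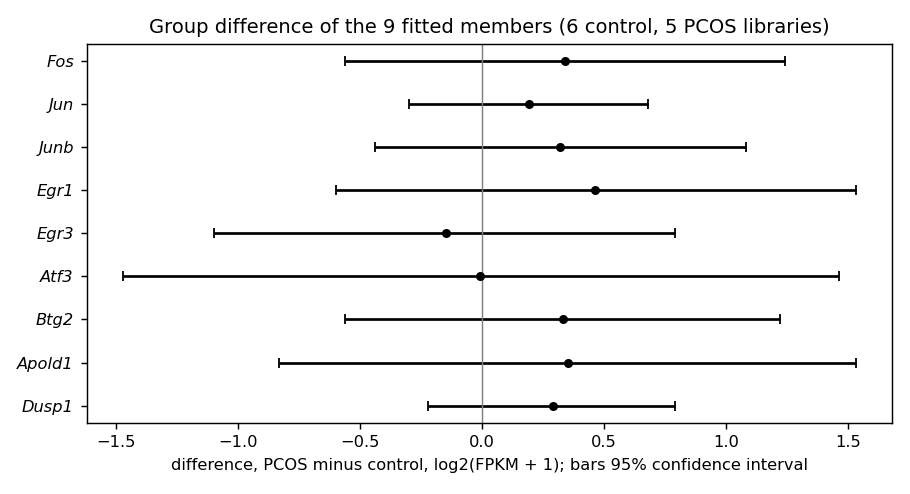
Points give the difference of the PCOS mean from the control mean in log2(FPKM + 1) units (x axis) for the 9 fitted members, and bars its 95% confidence interval from limma. All 9 intervals cross 0, the narrowest for Jun and Dusp1 and the widest for Atf3.

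Of the 9 fitted members 7 had a higher mean in PCOS and 2 a lower one, with a median difference of 0.32, where the median over all fitted rows was 0.002 and 50.6% of rows were higher. These members move together between libraries, so their signs are not independent of each other. The median was 0.55 without control replicate 5, 0.43 without control replicate 6, 0.10 without PCOS replicate 3, 0.13 without control replicate 1 and 0.11 without control replicate 4. It thus rests on a few libraries at either end. Single members moved likewise when 1 library was left out, Egr1 between 0.145 (without control replicate 4) and 0.709 (without control replicate 5), Fos between 0.112 (without PCOS replicate 3) and 0.610 (without control replicate 5), and Jun between 0.059 and 0.365 without those same libraries. Apold1 moved between 0.049 (without PCOS replicate 3) and 0.659, Btg2 between 0.097 (without PCOS replicate 3) and 0.606, and Junb between 0.107 (without control replicate 4) and 0.550, each highest without control replicate 5. Dusp1 moved between 0.151 without PCOS replicate 3 and 0.424 without control replicate 5. Without control replicate 6 the differences were 0.683 for Egr1, 0.530 for Apold1, 0.511 for Fos, 0.443 for Junb, 0.426 for Btg2, 0.328 for Dusp1 and 0.183 for Jun, and those of Atf3 (0.106) and Egr3 (0.094) changed sign. Atf3 was higher in PCOS by 0.47 without control replicate 5 and lower by a difference of −0.41 without PCOS replicate 3.

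Other genes followed the members from sample to sample. Each fitted row was compared with the members' mean profile (each fitted member centred and divided by its SD) over the 11 libraries, and the most alike were Cldn5 (Pearson r = 0.983, Spearman rho = 1.0), Ccn1 (r = 0.98), Sgk1 (r = 0.967), Nr4a1 (r = 0.966), Ccl7 (r = 0.962), Arl4a (r = 0.950), Nfkbiz (r = 0.943) and Enc1 (r = 0.938). The members themselves, which make up the profile, lay between 0.879 (Egr3) and 0.990 (Junb). These r have no p, since the genes were picked from all rows for them, and all points share their libraries. They held without the 2 libraries farthest from the profile's median, control replicates 4 and 5 (0.884 for Nfkbiz to 0.987 for Cldn5), and after taking out the group means (0.936 for Enc1 to 0.983 for Cldn5). A value above 0.8 was found in 78 rows, or 0.716% of those fitted, 69 of them no members.

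Cldn5, which encodes a tight junction protein of endothelial cells, was at 10.1 FPKM in the lowest, 19.5 in the median and 62.3 in the highest control, and at 17.9, 31.3, 39.3, 17.2 and 20.5 FPKM in PCOS. Nr4a1, an orphan nuclear receptor that is itself an immediate-early gene, went from 7.52 through 23.0 to 64.5 FPKM in controls and was at 16.4, 32.0, 52.1, 12.3 and 16.3 FPKM in PCOS. Ccn1, a matrix-associated early gene, went from 53.0 through 104 to 194 FPKM in controls, and Sgk1, a serum- and glucocorticoid-regulated kinase, from 15.7 through 33.5 to 60.9 FPKM. As in the members, control replicate 5 was the highest library for all 4, and the lowest was control replicate 4 or control replicate 1. Ccl7, a monocyte-attracting chemokine, had the same highest library but a low level, between 1.38 and 5.26 FPKM. Arl4a was an exception in size, since its highest library exceeded its lowest by only 1.35 times. The genes most opposed to the profile were Eif1ad (r = −0.921), Prune2 (r = −0.912) and Fam214b (r = −0.907), of which Prune2 went from 8.83 FPKM in control replicate 6 to 22.8 FPKM in control replicate 4.

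Among other primary response genes, which were listed with earlier results of these data known, none passed the test between groups either. Over all fitted rows 0.138% passed, so that lists of this size with 0 called, here and below, are not set apart from other rows. An r above 0.8 was found in 0.716% of all fitted rows. Of 16 fitted transcription factors of this kind, 8 were higher and 8 lower in PCOS, with 0 called in either direction (median difference −0.01, against 0.002 over all rows), 8 were in the top 5% by SD and 6 had an r above 0.8 with the members. The most variable were Nr4a1, Ier2 (20.2 to 65.7 FPKM in controls and 37.3 to 68.4 FPKM in PCOS) and Klf2, a flow-responsive endothelial factor (71.6 to 188 FPKM and 95.3 to 200 FPKM). Of 32 fitted signalling and secreted early genes, 21 were higher and 11 lower with 0 called (median difference 0.05), 18 were in the top 5% by SD and 9 were above 0.8. Here the most variable were Cxcl1, a neutrophil-attracting chemokine (1.33 to 11.2 FPKM in controls and 5.89 to 16.6 FPKM in PCOS), the matrix protein gene Thbs1 (0.602 to 6.14 FPKM and 0.672 to 2.92 FPKM) and the kinase gene Sik1 (8.80 to 38.2 FPKM and 8.66 to 24.3 FPKM). Sik1 and Thbs1 were highest in control replicate 5, and Cxcl1 in PCOS replicate 3.

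Relatives of AP-1 and ATF factors had a median residual SD of 0.208. Of 11 fitted, 7 were higher and 4 lower with 0 called (median 0.02), 2 were in the top 5% by SD and 2 were above 0.8. Fosl2, a late FOS relative, went from 3.74 to 12.4 FPKM in controls and from 4.01 to 6.77 FPKM in PCOS, and the small Maf gene Maff from 1.87 to 7.03 FPKM and from 2.52 to 4.48 FPKM; both were highest in control replicate 5. Of 7 fitted MAP kinase phosphatases other than Dusp1, 1 was higher and 6 lower with 0 called (median −0.01). Only Dusp6, the cytoplasmic ERK phosphatase, was above 0.8 (r = 0.927), at 7.42 to 21.8 FPKM in controls and 12.5 to 17.6 FPKM in PCOS. Upstream kinases and ternary complex factors were less variable (median residual SD 0.14): of 21 fitted genes for serum response factor, its ETS partners, MAP kinases and their activators, 0 were in the top 5% by SD, 0 were above 0.8, and 5 were higher and 16 lower with 0 called (median −0.04). The EGR co-repressors Nab1 and Nab2 had r of 0.612 and −0.001, with 0 called.

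Since the members can be made by several cell types, marker levels were read in the same libraries. Endothelial markers (7 of 8 listed were matched to a row, none at 0 in any library) summed to between 219 and 381 FPKM in controls. In PCOS they summed to between 258 and 332 FPKM. Control replicate 1, low in all members, had 353 FPKM of these markers, and control replicate 5, the highest for most members, had 300. Of the 7 fitted endothelial markers 0 had an r above 0.8 (median 0.23). Fibroblast markers (7 of 7 matched, none at 0) summed to 170 FPKM in control replicate 4 and to between 268 and 358 FPKM in the other 10. Their median r was 0.52, with 0 above 0.8. Smooth muscle markers (7 of 8 matched, none at 0) summed to between 256 and 442 FPKM in controls, with control replicate 5 the lowest. In PCOS they summed to between 312 and 427 FPKM. Macrophage markers (9 of 11 matched, with Ly6c2 at 0 in some libraries) summed to between 131 and 251 FPKM in controls. In PCOS they summed to between 278 and 389 FPKM. Their median r was 0.64 over 6 fitted markers. Among them Mrc1 was above 0.8 (r = 0.802), and Cd68 passed the test between groups (log2 difference 1.73, SE 0.17, limma adjusted p = 0.000298) with an r of 0.369. Control replicate 4, the lowest for most members, was also the lowest in the fibroblast, endothelial, macrophage, erythroid, neutrophil, liver and adipocyte marker sums. It was not the lowest in the cardiomyocyte or smooth muscle sums. It had the highest sum of 4 atrial markers, 1480 FPKM against 366 to 1050 FPKM elsewhere. Nearly all of this was Nppa, at 1470 FPKM. Myl4 was at 1.45 FPKM there, in a range of 1.35 to 2.89 FPKM over all libraries, and Myl7 and Sln were at 0 in some libraries. The part of these cell types in the members' levels was not tested, and in bulk tissue fewer cells of a type cannot be told apart from less RNA per cell.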

How the data were processed

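Heart RNA of 11 samples was analysed, grouped by title, with each column matched to its sample by its short description. Per the labels' protocols, a mirVana kit gave the RNA and a stranded TruSeq mRNA kit the libraries. Alignment with HISAT2 2.2.1 to mm10 and counting with HTSeq 0.13.5 are named in the submitters' processing notes, beside Trimmomatic 0.38, FastQC 0.11.9, DESeq2 1.18.1 and R 3.4.1; their order, and which strand was counted, is not given in the sources used here. The authors deposited FPKM values, 1 per RefSeq accession and sample, in 21878 rows. Of these, 13175 were matched to a GRCm38.p6 symbol with the same accession version, 5903 (Fos, Fosb and Egr3 among them) with a different one, and 2800 were not matched. FPKM are relative to the library total, so strongly changed abundant transcripts shift the others.

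Whole reads and lengths were recovered from the values: each of the 15939 rows detected in 3 samples or more came within 0.05 of whole reads, and 1500 of 1500 simulated rows came out right. Sums of these reads miss the fitted library totals by at most 0.154%. Many lengths were tried per row, so a row detected in few samples could come within 0.05 of whole reads by chance. The members were detected in all 11 samples. Groups were tested with limma 3.58.1 (R 4.3.3, lmFit and eBayes, trended prior variance), with log2(FPKM + 1) as input. The test covered the 10891 rows with a mean of at least 1 FPKM, adjusted by Benjamini-Hochberg. This log2 scale understates differences of low genes. The fit was also run on simulated reads with the same dispersion in every row. The members varied more than most rows, so that run does not show how the test performs for them. The members and lists were chosen with earlier results of these data known. Other genes named are the 8 most and the 3 least like the members' profile, leaving out predicted genes, and of each list up to 3 with the largest SD within groups and any called. Alternatives were another pseudocount, no filter or a higher one, median-ratio and quantile scaling, sample weights, blocking on the replicate number, a robust prior, voom on the recovered reads (added after the data were seen) and each sample left out in turn.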

Additional observations from a re-analysis of the deposited data

Results flagged for a closer look

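Control replicate 5 lay apart from the other control samples in 2 members by the gap between it and the next sample. Its Atf3 level was 51.19 FPKM, against 13.62 FPKM in the next highest control. Its Jun level was 104.9 FPKM, against 59.18 FPKM in the next. Among 42 groups of values (21 genes in each of the 2 conditions) these were the 2 found; chance gives about 1 in 20 groups, and the genes share their libraries.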

How the results depend on the processing

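No member passed the test in any of the 20 alternatives in which it was fitted, with limma adjusted p from 0.252 (Dusp1, replicate block) to 0.998. Fos, Jun, Junb, Egr1, Btg2, Apold1 and Dusp1 had a higher mean in PCOS in all 20, while Atf3 and Egr3 changed sign. Atf3 was at 0.011 with a pseudocount of 0.1, 0.106 with the replicate block and 0.046 with voom, and between −0.407 and 0.473 when each sample was left out. Egr3 was at 0.094 with the replicate block and between −0.403 and 0.11 when each sample was left out. The median difference of the members ran from 0.097 to 0.550 with a sample left out, and was 0.426 with the replicate block, in which control replicate 6 has no partner and adds nothing to the difference. Deviations of same-numbered samples from their group means correlated between −0.118 and 0.254. Differently numbered samples were not set beside them, so these values cannot decide whether replicate numbers pair the samples. Over all fitted rows, 15 passed; 25 did with the replicate block, 25 with sample weights, 5 with a filter at a mean of 5 FPKM, which left out Egr3, and between 10 and 32 with a sample left out, the most without control replicate 6. Likeness to the profile ranged from 0.897 to 0.990 for the 8 most alike genes and from −0.958 to −0.809 for the 3 least alike over 14 alternatives. The planned count models edgeR and DESeq2 were not run; voom on the recovered reads was run in their place. Depth limits Fosb (10 to 132 reads) and Egr3 (26 to 393 reads).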

Other observations

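Heat shock and clock transcripts were read beside the members. Of 5 fitted heat shock genes 0 had an r above 0.8 with the members (median 0.34). Hspa1a, the inducible HSP70, was at 0.764 to 1.84 FPKM in controls and highest in PCOS replicate 5, at 4.51 FPKM, a sample in the middle of the range for most members. Dnajb1, its co-chaperone, was likewise highest in PCOS replicate 5, at 13.7 FPKM, and at 9.22 FPKM in control replicate 5. Of 8 fitted clock genes 0 had an r above 0.8, and the median was −0.45. Per1, a clock gene that is also an early response gene, was at 16.9 FPKM in control replicate 5 and 16.3 FPKM in control replicate 1, which lay at opposite ends of the range for the members (r = 0.039). Per3 was highest in control replicate 1, at 11 FPKM, and lowest in PCOS replicate 3, at 4.82 FPKM (r = −0.593).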
